A study of Mus musculus with 6 samples.

Results

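The genes described here are those of the VIP and PACAP system: the receptors Vipr1, Vipr2 and Adcyap1r1, the ligands Vip and Adcyap1, and the receptor activity-modifying proteins Ramp1, Ramp2 and Ramp3. They were chosen by name, and every non-control probe carrying one of these names was used, giving 11 probes for 8 genes among 41174 probes for 28090 gene names. RNA came from VIP-treated and from untreated CD4 T cells, resting and taken from the spleens of C57BL/6J mice. Spleens of 5 to 10 male and female mice aged 6 to 32 weeks were pooled for each sample, and CD4 cells were taken out with magnetic beads. Each of 6 2-colour arrays held the VIP-treated and the untreated sample of a biological replicate, with VIP-treated RNA in the Cy5 dye on replicates 1, 3 and 5 and in Cy3 on replicates 2, 4 and 6. How much VIP was added and for how long is not stated in the sources used here.

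Vasoactive intestinal peptide (VIP) and pituitary adenylate cyclase-activating polypeptide (PACAP, encoded by Adcyap1) are related neuropeptides. Vipr1 and Vipr2 encode receptors that bind both peptides, whereas the receptor encoded by Adcyap1r1 prefers PACAP. All 3 are class B G protein-coupled receptors that couple to the stimulatory G protein and raise cyclic AMP (cAMP). RAMPs are single-pass membrane proteins that pair with such receptors. With the calcitonin receptor-like receptor (Calcrl), Ramp1 forms a receptor for calcitonin gene-related peptide, and Ramp2 or Ramp3 forms one for adrenomedullin.

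The probes decide what each value stands for, so stretches of those the results turn on are shown, 5′ to 3′. Each probe is 60 bases long. Ramp3 has a single probe at chr11:6577299-6577358 in the mm9 build, Vipr1 a single probe at chr9:121579630-121579689, and Vip a single probe at chr10:4699238-4699297, of which the first 30 bases follow. The Ramp1 probe A_51_P348665 is shown whole because its 60 bases map across 26256 bases of chromosome 1, at chr1:93093453-93119708, so it crosses an intron. Exon and UTR annotation of mm9 was not used here.
Ramp3 A_51_P227090: cgattctgtgtccagtgtgggctggagctg
Vipr1 A_52_P227279: gggcaaggcatcttatgcctccctccatct
Vip A_51_P368313: ggataaaagagatatgtggcaaaaggattt
Ramp1 A_51_P348665: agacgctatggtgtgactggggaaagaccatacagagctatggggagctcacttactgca

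Of the 8 genes, Vipr1, Ramp1 and Ramp3 had a probe that the scanner software marked as well above background in all 6 VIP-treated and all 6 untreated channels. Adcyap1r1 reached that level on 5 arrays in each treatment, Adcyap1 on 3 in each, Ramp2 on 3 with VIP and 2 untreated, Vip on 2 with VIP and 1 untreated, and Vipr2 on 1 with VIP and 0 untreated. These small differences depend on the flag. By the software's flag for a positive and significant signal, the counts were 5 with VIP and 6 untreated for Adcyap1, 4 and 6 for Ramp2, 3 and 3 for Vip, and 2 and 2 for the Vipr2 probe A_52_P405556. Testing needed a signal well above background in at least 3 channels of either treatment, which 7 probes of 6 genes passed and both Vipr2 probes, the Vip probe and the Adcyap1r1 probe A_51_P259603 did not. Among the tested genes only Ramp3 passed the test, and it rose 1.33-fold with VIP. That is 1 of 6 tested genes called, against 3.08% of all 19225 genes tested, at a Benjamini-Hochberg adjusted p under 0.05 by limma. Called genes that were higher with VIP made up 1.72% of all genes and called genes that were lower made up 1.37%. Fewer cells of a type and less RNA per cell cannot be told apart in these bulk samples.

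**Figure D1:**
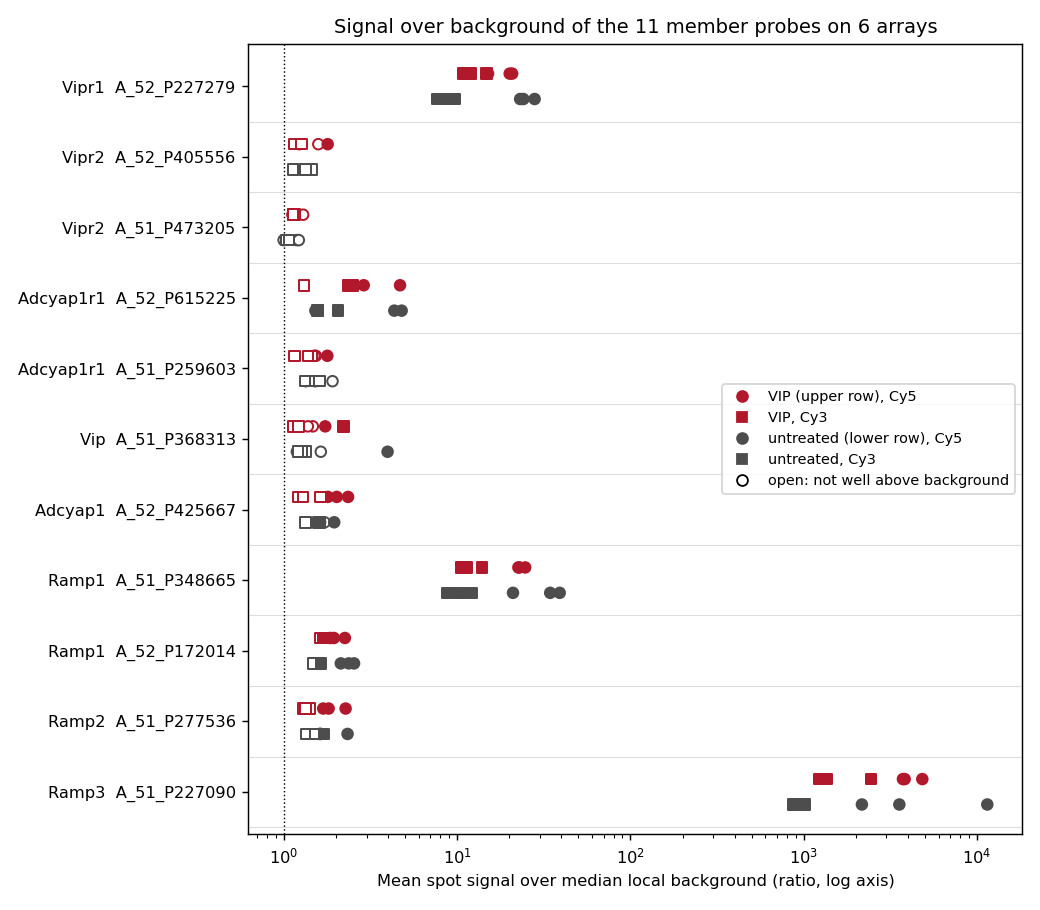
Mean spot signal over median local background (ratio, log axis) of the 11 probes, with VIP-treated channels in the upper row and untreated channels in the lower row of each probe, circles for Cy5 and squares for Cy3. Filled points are well above background, which holds for every channel of Vipr1, Ramp1 A_51_P348665 and Ramp3 and for no channel of Vipr2 A_51_P473205.

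Depth on these arrays is set by signal over background. Between 59.1% and 79.0% of spots were well above background in the VIP-treated channels and between 63.2% and 76.0% in the untreated ones. By dye, the share was 65.4% to 79.0% in Cy5 and 59.1% to 67.8% in Cy3. The CD4 T cell markers Cd3d, Cd3e, Cd3g, Cd4, Cd5, Cd28, Lck and Cd2 were well above background on 6 of 6 arrays in both treatments. Among the tested genes in lists of markers of 11 other cell types that a spleen could carry over, 0 were called, where 3.08% of all genes were. The defining endothelial marker Cdh5 was well above background on 1 array with VIP and 0 untreated, and the stromal marker Dcn on 0 in both.

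The ligand genes lay near background. Vip, the gene of the peptide that was added to the cells, had mean signals of 79.67, 83.77, 64.6, 42.77, 59.08 and 47.38 in the VIP-treated channels of replicates 1 to 6. The untreated channels had 52.2, 166.6, 45.6, 52.28, 47.02 and 69.42. Replicate 2 was the highest array in both treatments, and the groups overlapped. The log2 ratio (VIP-treated over untreated) was above 0 on 3 arrays, all with VIP in Cy5, and below 0 on the 3 arrays with VIP in Cy3, with a mean of -0.01 ± 0.093 (SD, n = 6). With so few arrays above background, Vip was not tested.

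Adcyap1, the PACAP gene, passed the filter with 3 arrays in each treatment. All 3 of its arrays above background with VIP carried VIP in Cy5, the brighter dye. Of the 3 untreated channels above background, 1 was in Cy5 and 2 were in Cy3. Its mean signal was 98.92, 46.56, 80.73, 51.69, 105.6 and 60.2 with VIP, against 59.92, 76.42, 53.77, 72.82, 59 and 95.64 untreated, so that the higher channel of each array was the one in Cy5. Its fitted log2 ratio was -0.0073 (95% interval -0.11 to 0.095, adjusted p = 0.964 by limma, n = 6), which turned to 0.01 with median centring and to 0.03 without replicate 2. In fold, the interval of the main fit runs over 0.927 to 1.07. With signals as processed by the scanner software, the log2 ratio was -0.15 ± 0.13 (SE; adjusted p = 0.654 by limma). That value lies outside the interval of the main fit, so the interval holds for that processing only.

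The receptor Vipr1, the main VIP receptor of resting T cells, was measured clearly. Its mean signal was 678.7, 457.3, 824, 500.9, 934 and 414.2 in the VIP-treated channels of replicates 1 to 6. In the untreated channels it was 345.5, 1063, 315.7, 1092, 366.7 and 1108. Within each treatment the Cy5 channels were the high ones, and the groups overlapped. After loess normalization, which removes the dye's trend with intensity, the log2 ratios were -0.18, 0.13, -0.04, 0.03, -0.02 and -0.04, with 2 of 6 above 0. The fitted log2 ratio was -0.02 ± 0.044 (SE, n = 6; adjusted p = 0.891 by limma), and its interval in fold runs over 0.923 to 1.06. The value turned to 0.0065 without replicate 1 and to 0.0016 without replicate 6. An exact sign-flip permutation test over the 6 arrays, two-sided, gave p = 0.594, where the smallest p it allows is 0.03125 and 7 probes were tested.

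Vipr2, the receptor that activated T cells are known to induce, was at background. The probe A_51_P473205 had signals of 41.38 to 58.1 with VIP and 40.53 to 56.05 untreated, which is 1.12 to 1.29 times and 0.996 to 1.22 times the local background. The probe A_52_P405556 had 42.68 to 73.37 with VIP and 41.85 to 56.65 untreated. It was well above background on 1 array with VIP, in Cy5, and on 0 untreated, so no fold is given, and its log2 ratio was above 0 on 4 of 6 arrays. In the authors' deposited table, A_51_P473205 is listed at a log10 ratio of 0 on 6 of 6 arrays. A change of Vipr2 was therefore not detectable at this signal.

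Adcyap1r1, the PACAP-preferring receptor, was dim. Its probe A_52_P615225 at chr6:55448171-55448230 had mean signals of 122.8, 93.66, 191.9, 56.07, 107.5 and 87.07 with VIP. The untreated channels had 61.54, 231.9, 80.16, 72.98, 58.39 and 199.5, with the brightest on replicates 2 and 6. The log2 ratio was 0.28, 0.24 and 0.14 with VIP in Cy5 and -0.20, -0.02 and -0.12 with VIP in Cy3, so its sign followed the dye. The fit, which carries a dye term, gave 0.05 ± 0.043 (SE, n = 6; adjusted p = 0.593 by limma), with a 95% interval of -0.04 to 0.15. With signals as processed by the scanner software, the fitted value of this probe was 0.20 ± 0.12 (SE; adjusted p = 0.5 by limma). The other probe, A_51_P259603 at chr6:55450829-55450888, was well above background on 1 array with VIP and 0 untreated, and positive and significant on 4 with VIP and 5 untreated. Its log2 ratio was above 0 on 1 of 6 arrays.

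**Figure D2:**
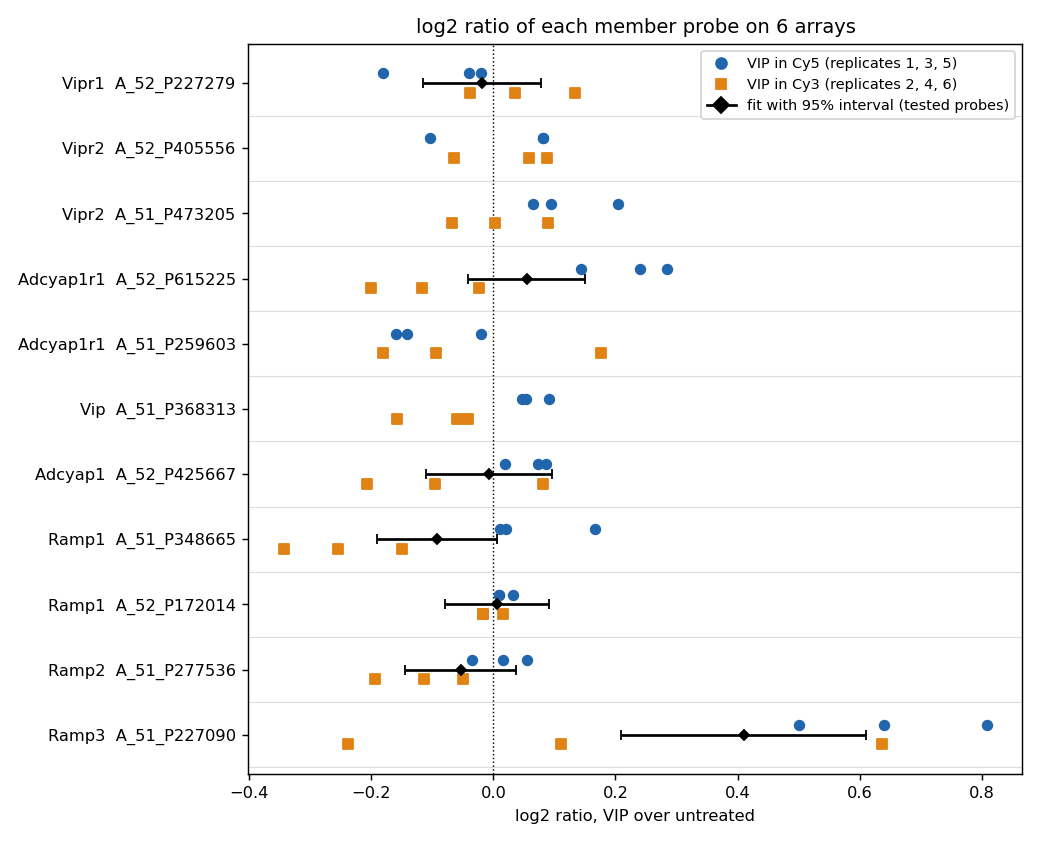
log2 ratio (VIP-treated over untreated) for each of the 11 probes, with circles for the 3 arrays with VIP in Cy5, squares for the 3 with VIP in Cy3, and diamonds with bars for the fit and its 95% interval in the 7 tested probes. The interval of Ramp3, 0.21 to 0.61, lies above 0 and those of the other 6 tested probes include 0.

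Among the RAMP genes, Ramp1 was measured well by A_51_P348665. Its mean signal was 1086, 458.7, 970.1, 398.8, 1028 and 529.3 with VIP. The untreated channels had 459.5, 1395, 317.2, 986.8, 392.1 and 1797. The log2 ratios were 0.02, -0.26, 0.17, -0.15, 0.01 and -0.34, above 0 on each array with VIP in Cy5 and below 0 on each with VIP in Cy3. The fitted log2 ratio was -0.09 (95% interval -0.19 to 0.0061, adjusted p = 0.335 by limma, n = 6), so Ramp1 did not pass the test. The other probe A_52_P172014, at chr1:93121428-93121487 and well above background on 5 arrays with VIP and 4 untreated, gave 0.0052 (adjusted p = 0.970 by limma over all probes).

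Ramp2 lay near background, with mean signals of 47.55 to 111.3 in VIP-treated channels and 51.98 to 99.02 in untreated ones. All 3 of its VIP-treated channels above background were in Cy5, and of the untreated ones 1 was in Cy5 and 1 in Cy3. The log2 ratio was above 0 on 2 of 6 arrays, and the fit gave -0.05 ± 0.041 (SE, n = 6; adjusted p = 0.571 by limma).

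Ramp3 stood far above background. Its mean signal was 160800, 53150, 166500, 50020, 198400 and 85370 in the VIP-treated channels of replicates 1 to 6. In the untreated channels it was 31750, 171100, 32110, 101900, 33400 and 498900, and 0 of the 12 channels were saturated. Its log2 ratios were 0.81, 0.11, 0.50, 0.64, 0.64 and -0.24, higher with VIP on 5 of 6 arrays and lower on replicate 6. Of 17202 genes measured on all arrays, 3.87% were higher and 3.17% lower with VIP on 6 of 6, and none of the 6 tested member genes was among them.

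The fitted log2 ratio of Ramp3 was 0.41 ± 0.091 (SE, n = 6), or 1.33-fold with a 95% interval of 1.16 to 1.53, and an adjusted p of 0.0396 by limma. It ranked 61st among all rises by size. The mean was 0.65 with VIP in Cy5 and 0.17 with VIP in Cy3, and the fitted dye term was 0.24. With that term removed, the ratios were 0.57, 0.35, 0.26, 0.88, 0.40 and 0.0009, where the term was fitted on the same arrays. Within the 3 slides, each holding an array of either dye orientation, the ratio was 0.46, 0.57 and 0.20. In the authors' deposited table, the log10 ratios were 0.186, 0.112, 0.0729, 0.251, 0.121 and 0.0621, all above 0.

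The call of Ramp3 is close to the threshold. It was lost without replicate 1 (adjusted p = 0.127), 2 (0.0998), 3 (0.0573), 4 (0.0535) or 5 (0.115) by limma and kept without replicate 6 (0.0136), with log2 ratios of 0.29 to 0.51. It was also lost in 7 of 12 other settings, with the same direction in all 12. That shared direction was partly fixed in advance. Settings that change only the model, filter or probe choice keep the fitted value of 0.4099. The processed signals and the deposited ratios carry nearly the same ratios (0.4454 in both). The exact sign-flip permutation test, two-sided and without a dye term, gave p = 0.09375.

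**Figure D3:**
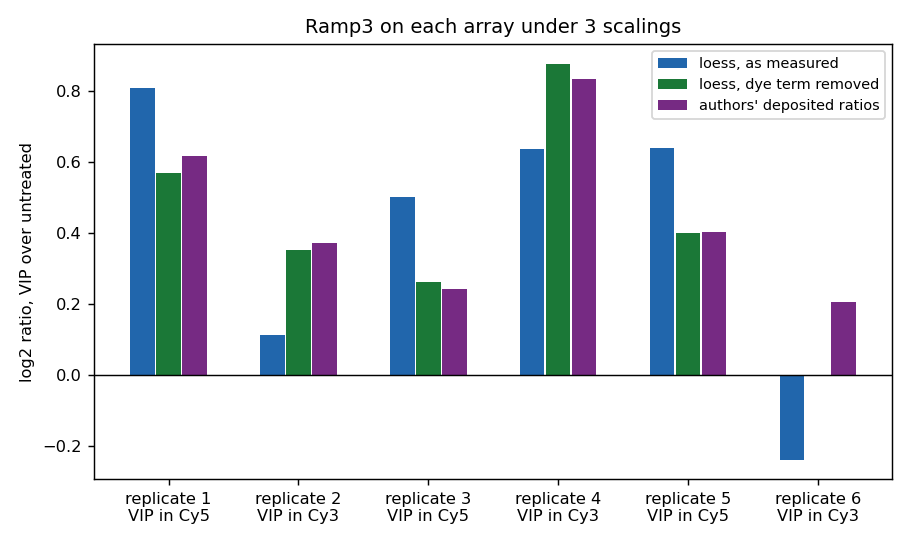
log2 ratio (VIP-treated over untreated) for Ramp3 on each array, with bars for the loess ratio as measured, the same with the fitted dye term removed, and the authors' deposited ratio turned to log2. Replicate 6 is the only array below 0, at -0.24 as measured, and stands at 0.0009 with the dye term removed.

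Ramp3 varied more between replicates than most genes. The SD over arrays of its mean log2 level was 0.573, larger than in 97.8% of 17202 genes, whose median was 0.19. Replicate 6 was the high one, with levels centred within each dye at 1.12 with VIP and 1.12 untreated, while the other replicates lay between -0.21 and 0.21 with VIP and between -0.80 and -0.13 untreated. On replicate 6, where the Ramp3 ratio was -0.24, the log2 ratio of the summed signal of 4 neutrophil markers was 1.23, against -0.495 to 0.0786 on the other arrays. That sum was small, at 615 to 2240 in untreated channels, against 188000 to 306000 for CD4 T markers. Replicate 6 was also the lowest array for some other lists, though not for all. Among these were erythroid (-0.494, against -0.217 to 0.0323), plasma (-0.383) and the CD4 T markers themselves (-0.191, against -0.17 to 0.105). The part of these sums in the Ramp3 value was not tested. Leaving out replicate 6, the lowest VIP-treated level of Ramp3 was below the highest untreated one, so the groups overlapped there too. On the same scale Vip was at 0.77 with VIP and 0.74 untreated on replicate 2. Adcyap1r1 had an SD of 0.383, larger than in 91.1% of genes, with replicates 2, 3 and 6 high in both treatments.

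**Figure D4:**
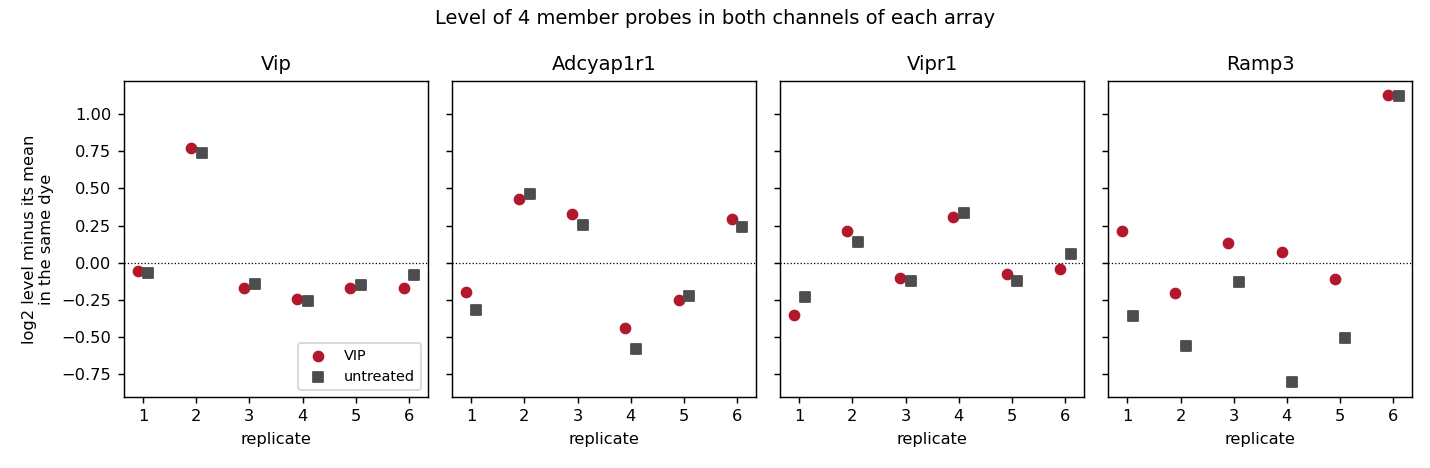
log2 level minus its mean in the same dye, by replicate, for the brightest probe of Vip, Adcyap1r1, Vipr1 and Ramp3, with circles for VIP-treated and squares for untreated channels. Where 1 array stands apart, it does so in both channels, at 1.12 and 1.12 for Ramp3 on replicate 6 and at 0.77 and 0.74 for Vip on replicate 2.

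Likeness to other genes was taken as Pearson's r over the 12 channel levels of 6 arrays, among 12471 named genes. Both channels of an array share its hybridisation, so these values are a description with no test. Ramp3 was most like Actg1, a cytoplasmic actin gene (r = 0.965), then Khnyn (0.944) and Vps37b (0.944). Because replicate 6 stood apart for Ramp3, the correlations of ranks (Spearman) are given too, at 0.881, 0.72 and 0.916. The fitted log2 ratio of Actg1 was 0.18 (adjusted p = 0.211 by limma). Vipr1 was most like Cradd (0.973), Ppp4c (0.955) and Prpf18 (0.941), and Ramp1 most like Mark2 (0.954), Exosc1 (0.953) and Fbxo5 (0.941). Adcyap1r1 was most like Olfr1181 (0.982), Map4k1 (0.966) and Rgs3 (0.964). Adcyap1, near background, was most like A26c3 (0.957), Ly6g6e (0.948) and Tcaf1 (0.944), and Ramp2, also near background, most like Cavin2 (0.975), Tnfaip2 (0.958) and Pkib (0.945).

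**Figure D5:**
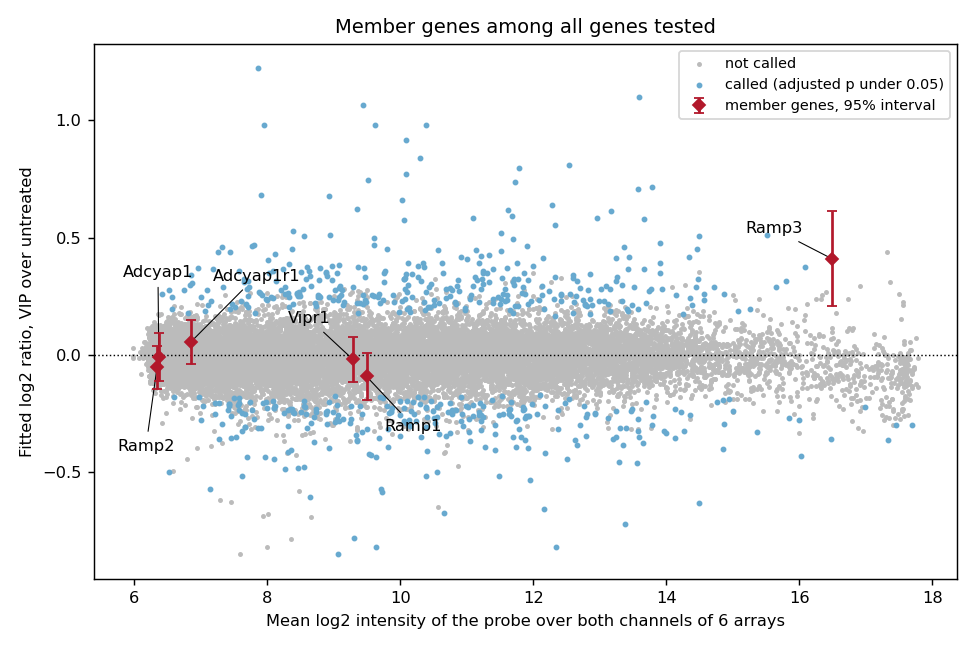
Fitted log2 ratio (VIP-treated over untreated) against the mean log2 intensity of each of 19225 genes, with called genes in blue and the 6 tested member genes as diamonds with 95% intervals. In the main fit shown here, Ramp3 lies at 0.41, and the other 5 lie between -0.09 and 0.05. With signals as processed by the scanner software, Ramp3 was at 0.45, Adcyap1r1 at 0.20, Adcyap1 at -0.15 and Ramp2 at -0.24.

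Around these genes, no tested gene among the other class B receptors and their ligands was called. Of 12 such receptors 8 were tested and 0 called, with a median log2 ratio of 0.0061 against -0.0047 over all genes. At an unadjusted p under 0.05, 0 of the 8 passed, where 16.7% of all genes did. The lowest p was that of Gipr, the receptor for glucose-dependent insulinotropic polypeptide, at -0.08 (adjusted p = 0.365 by limma). Calcrl, the RAMP partner, was well above background on 6 of 6 arrays in both treatments and stood at 0.04 (adjusted p = 0.867 by limma). Of 12 ligands 7 were tested and 0 called, with the lowest p for Sct, the secretin gene, at -0.05 (adjusted p = 0.723 by limma). Over all genes tested 3.08% were called, so 0 calls in lists this short say little about these receptors and ligands. Dpp4, a peptidase that cleaves such peptides, stood at -0.05 (adjusted p = 0.659 by limma), and Mme, neprilysin, was not tested.

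Downstream of the receptors, a few single genes were called in the main fit, where 3.08% of all genes tested were. The number called over all genes fell from 593 to 38 with signals as processed by the scanner software. Of 28 genes of the stimulatory G protein and cAMP route 23 were tested, 1 called higher and 1 lower, with a median log2 ratio of 0.018. Rapgef3, which encodes the cAMP-activated exchange factor Epac1, rose by 0.47 (adjusted p = 0.000593 by limma). Adcy7, an adenylyl cyclase, fell by 0.42 (adjusted p = 0.00115 by limma). Of 7 genes of receptor desensitisation all were tested, 2 called higher and 0 lower, with a median of -0.08. Arrb1, which encodes a beta-arrestin, rose by 0.28 (adjusted p = 0.00788 by limma) and Grk5, a receptor kinase gene, rose by 0.23 (adjusted p = 0.0237 by limma).

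The cAMP response element is the DNA site of CREB-family factors, and promoters were read for it because these receptors signal through cAMP. The motifs TGACGTCA, TGACGTC and TGACG were searched on both strands in the 250 bases before each start in RefSeq (GRCm38.p6), each shorter motif lying within the longer. They occur in 1.55%, 2.78% and 17.8% of 32851 promoters. RefSeq windows were used for 7 of the 8 genes. TGACGTC was found for both ligand genes, Vip (79 bases before the start) and Adcyap1 (91 bases before one start and 242 before another). TGACG alone was found for Vipr1, 13 bases before the start and on the minus strand. The windows of Vipr2, Adcyap1r1, Ramp1 and Ramp3 held none of these letters. The ligand windows, at chr10:5638968-5639217 and chr17:93198767-93199016 on the plus strand, are shown with the motif in capitals beside that of Ramp3, the called gene, at chr11:6658283-6658532. A match is a run of letters and not a measured site.
Vip: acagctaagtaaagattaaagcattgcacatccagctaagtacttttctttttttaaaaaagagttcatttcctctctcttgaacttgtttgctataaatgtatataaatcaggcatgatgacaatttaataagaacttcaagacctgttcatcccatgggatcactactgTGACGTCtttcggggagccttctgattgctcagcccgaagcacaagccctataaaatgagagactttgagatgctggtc
Adcyap1: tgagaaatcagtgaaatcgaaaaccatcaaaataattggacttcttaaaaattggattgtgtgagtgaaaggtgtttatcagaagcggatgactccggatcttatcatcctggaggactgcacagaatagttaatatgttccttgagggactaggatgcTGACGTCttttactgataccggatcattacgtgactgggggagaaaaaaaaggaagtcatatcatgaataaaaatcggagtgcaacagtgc
Ramp3: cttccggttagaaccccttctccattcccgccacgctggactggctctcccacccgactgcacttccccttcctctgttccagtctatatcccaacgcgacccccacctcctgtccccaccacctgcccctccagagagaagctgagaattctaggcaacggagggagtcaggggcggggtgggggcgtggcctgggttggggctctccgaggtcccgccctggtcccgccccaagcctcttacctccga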

How the data were processed

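The authors' scanner files give an intensity for each spot and channel and detection flags (other values), written by Agilent Feature Extraction 9.5.1.1, per the file headers, with mm9 probe positions. The authors also deposited a table of log10 ratios, which matched the scanner files' ratio turned to VIP over untreated within 4.8e-06 and served as an alternative. Mean signal and median local background were corrected with normexp (offset 50) and normalized by loess within arrays in limma 3.58.1 and R 4.3.3. Outlier-flagged spots (1.93% to 8.96%) were left out. A tested probe needed unflagged values from at least 2 arrays per dye orientation, and a gene stands by its brightest tested probe. The model of log2 VIP over untreated had a dye term and was paired within arrays, because both samples of a replicate share an array by design. Precision is limited by the number of arrays, with a median SE of 0.0481. On simulated data for VIP over untreated with 19225 genes, 50.7% of changes of 0.25, 88.1% of 0.5 and 100% of 1 (log2) were called. The simulated noise was normal and independent between genes and arrays, at each gene's fitted spread, so these shares may be too high for real arrays. Levels per channel were taken after Aquantile. The members, the lists of related and marker genes and the naming rule (all members, called genes of each related list or else the gene with the lowest p, and the 3 genes most like each member) were chosen with earlier results of these data known; Calcrl and Mme were named after their values were seen. Alternatives changed the background correction, offset, normalization, filter, flags, dye term, slide block, pairing, probe choice, source of the values, detection flag and scale, and left out each replicate. Coordinates count from 1.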

Additional observations from a re-analysis of the deposited data

Results flagged for a closer look

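In 33 groups of 6 values, a sample far from the others was looked for with Dixon's test at its 95% critical value. It was found in 5 groups, all of channel levels, where chance gives about 1 in 20 groups if they are independent. They are not, because both channels of an array share its hybridisation. Levels are log2 values centred within each dye. Ramp3 on replicate 6 was at 1.124 with VIP, against -0.2055 to 0.213 on the other arrays, and at 1.123 untreated, against -0.8033 to -0.1278. Vip on replicate 2 was at 0.7691 with VIP and 0.7359 untreated, and all other arrays were below 0 in both treatments. Ramp2 on replicate 5 was at 0.2686 with VIP, against -0.1649 to -0.00992 on the others.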

How the results depend on the processing

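The number of genes changed with VIP, 593 (330 higher, 263 lower), was 38 (29 and 9) with signals as processed by the scanner software, 41 (31 and 10) with the ratios the authors deposited, 371 (149 lower) with offset 16, 308 (210 and 98) with median centring, 124 (87 and 37) without a dye term, and 5 (4 and 1) with no replicate block, that is with 12 unpaired channels. With outlier spots kept, 149 genes were lower. Leaving out 1 replicate gave 247 to 461 changed genes, 149 to 265 higher and 98 to 199 lower. Ramp3 kept its direction in all 12 other settings and was no longer called with processed signals (0.4454, adjusted p = 0.147), deposited ratios (0.4454, adjusted p = 0.141), offset 16 (0.4123, adjusted p = 0.0735), median centring (0.336, adjusted p = 0.228), outlier spots kept (0.4184, adjusted p = 0.0556), no dye term (0.4099, adjusted p = 0.265) and no replicate block (0.4099, adjusted p = 1), all by limma. Its direction was partly fixed in advance, because some settings keep the value of 0.4099 and the processed and deposited ratios are nearly the same. Without 1 replicate the Ramp3 value ran over 0.2931 to 0.5121. Adcyap1 turned to 0.01026 with median centring, and ran over -0.04623 to 0.02608 without 1 replicate, as Vipr1 did over -0.04121 to 0.006496. The same range was 0.03162 to 0.07613 for Adcyap1r1, -0.1174 to -0.06866 for Ramp1 and -0.07102 to -0.03495 for Ramp2, which passed the filter in 3 of these 6 fits, and Adcyap1 in 4. The cause of these differences was not tested. With processed signals and with deposited ratios, Adcyap1 was at -0.1517, Adcyap1r1 at 0.2012 and Ramp2 at -0.2379, farther from 0 than in the main fit and not called. Adcyap1, Adcyap1r1 and Ramp2 had no value under the stricter filter. Signal near background limits what can be said of Vip, Vipr2, Adcyap1 and Ramp2.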
